A study of Rattus norvegicus with 12 samples.

Results

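The transcripts described here encode 6 transcription factors of the immediate early class, namely Fos, Jun, Junb, Egr1, Atf3 and Myc. They were chosen by Ensembl rat gene identifier, in this order ENSRNOG00000008015, ENSRNOG00000026293, ENSRNOG00000042838, ENSRNOG00000019422, ENSRNOG00000003745 and ENSRNOG00000004500, from a count table of 32883 genes. The symbols came with the rule that selected the genes, since the count table gives identifiers alone. All 6 were rows of the table, and 5 of them passed the filter on low counts that left 10491 genes for testing. Fos did not pass it.

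The libraries came from ventricular cardiomyocytes of neonatal Wistar rats, isolated by trypsin digestion and a Percoll gradient from hearts 1 to 2 days after birth. The 12 libraries formed 4 groups of 3. These were RNA recovered with a Cpeb4 antibody (IP) from cells given phenylephrine (PE) for 24 h, total RNA (input) of PE cells, IP RNA of mock-treated cells, and input RNA of mock-treated cells. PE is an agonist of alpha-adrenergic receptors that makes cardiomyocytes grow. All groups share the strain and the isolation, and no IP with a control antibody was analysed here, so RNA held by Cpeb4 and RNA held by the beads or the antibody cannot be told apart. The cardiomyocyte label could not be checked against marker genes, because no marker symbol could be matched to an identifier.

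Immediate early genes are switched on within minutes of a growth or stress signal without new protein synthesis, and their mRNAs usually decay fast again. Fos, Jun and Junb proteins pair through leucine zippers into the AP-1 complex, Egr1 is a zinc finger factor, Atf3 is a stress-induced factor of the ATF/CREB family that often represses, and Myc drives growth and ribosome production. In cardiomyocytes, alpha-adrenergic agonists are known to induce Fos, Jun, Egr1 and Myc early in the hypertrophic response. Many of these mRNAs carry U-rich and AU-rich stretches near their 3′ ends, and Cpeb4 is an RNA-binding protein that recognises U-rich cytoplasmic polyadenylation elements. The comparisons ask whether these mRNAs were enriched by the Cpeb4 antibody relative to total RNA, and whether they differed between PE and mock cells at 24 h.

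Of the 6 genes, 2 had a promoter in the RefSeq table used here (build GRCr8), matched by symbol. Their 250 bases before the annotated start are shown because these are the elements through which such genes are classically switched on. Both lie on the plus strand, Egr1 at chr18:26736828-26737077 and Junb at chr19:40080876-40081125. Capitals mark matches, on either strand, to the serum response element (CArG box), the core of the cyclic AMP response element (TGACG), the CCAAT box (CCAAT) and the TATA box (TATAAA).
Egr1: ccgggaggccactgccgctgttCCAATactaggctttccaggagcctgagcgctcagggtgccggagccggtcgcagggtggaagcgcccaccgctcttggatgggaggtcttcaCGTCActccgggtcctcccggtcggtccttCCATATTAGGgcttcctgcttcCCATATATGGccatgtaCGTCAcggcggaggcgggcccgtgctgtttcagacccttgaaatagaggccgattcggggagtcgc
Junb: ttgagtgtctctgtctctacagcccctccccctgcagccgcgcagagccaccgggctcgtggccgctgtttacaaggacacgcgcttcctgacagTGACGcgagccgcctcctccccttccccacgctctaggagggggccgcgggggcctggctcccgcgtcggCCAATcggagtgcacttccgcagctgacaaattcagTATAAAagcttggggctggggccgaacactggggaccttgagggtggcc

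The Egr1 window held 2 serum response elements, CCATATTAGG and CCATATATGG, a motif bound by serum response factor that was present in 1.5% of the 33469 promoters of the table. It also held 2 matches to TGACG, which 18.2% of promoters had, and a CCAAT box, which 34% had. The Junb window held 1 match to TGACG, 1 CCAAT box and 1 TATA box, the last present in 12.9% of promoters. The full element TGACGTCA, the AP-1 element TGANTCA and the E-box CACGTG were searched on both strands too, and neither window held their letters. They occur in 1.59%, 6.34% and 5.59% of promoters. None of the searched motifs overlapped another in the marked windows. The sequences at the 3′ ends of these mRNAs, which a Cpeb4 comparison would bear on more directly, were not analysed here.

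The 12 libraries held between 1423334 and 30216559 counts. Levels are given as CPM, a gene's share of the counts of its library scaled to a common total, after TMM scaling, which sets a library's total so that most genes of different libraries agree, and they are not divided by transcript length. Undetected genes were sought among those that lay at 20 to 50 CPM in reference libraries of the same pool, IP or input. An input library of mock cells (replicate 2) and one of PE cells (replicate 1) had 0 counts for 3.31% and 2.76% of these genes. For an IP library of mock cells (replicate 2) the share was 6.96%. For the other 9 libraries this share was at most 0.238%. Values without mock replicate 2 and PE replicate 1 of both IP and input, called the 4 libraries, are given as well. They are printed where they turn a sign or move a value by over 1.5 times. IP PE replicate 1, the deepest library, is among these 4 although its share was 0.238%. Leaving out the 4 thus removes more than the libraries with many undetected genes. The 4 also never served as reference for this share, so it gives no independent ground for leaving them out. Whether the replicates are separate cultures is not stated, and the spread that p-values measure is that between these libraries, which may be technical.

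**Figure D1:**
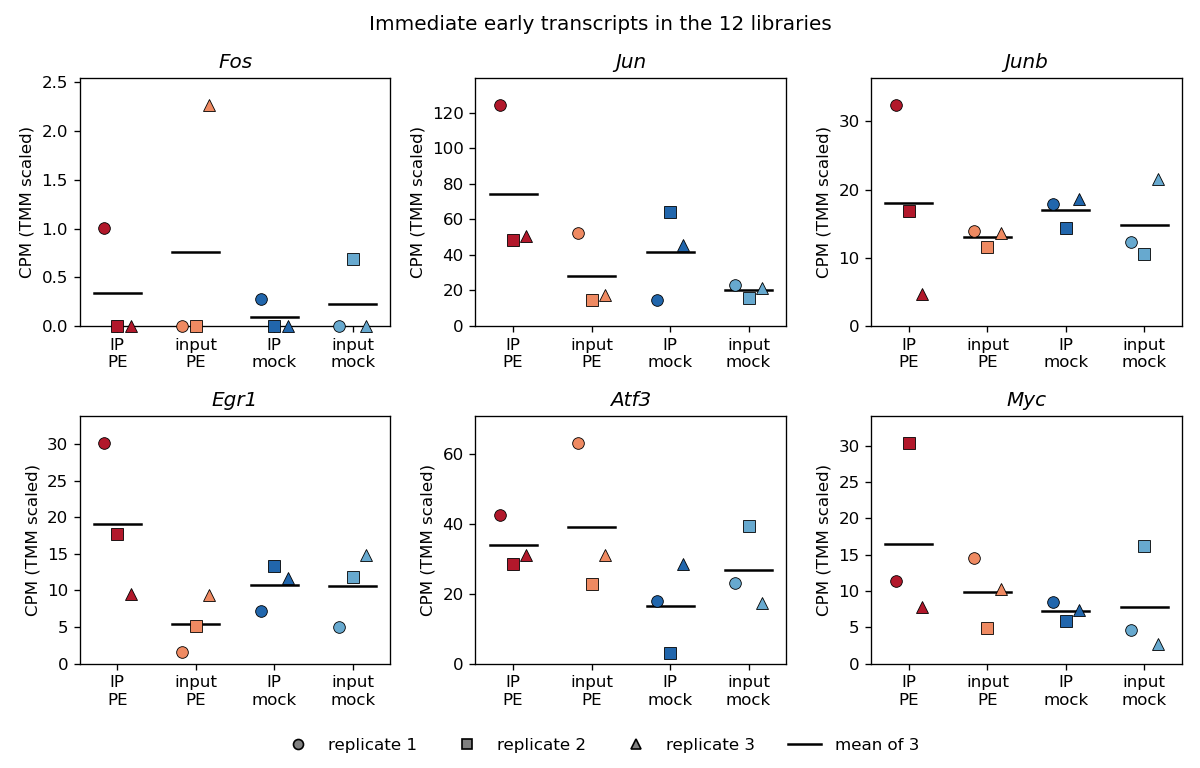
Level of each transcript in the 12 libraries, in TMM-scaled CPM (vertical axes, linear, from 0), by group (horizontal axes). Points are libraries, symbols mark the replicate number, and bars are means of 3. Jun reached 124 CPM in IP PE replicate 1, and Fos was at 0 in 8 libraries.

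Fos, the partner of the Jun proteins in AP-1, was close to undetected at 24 h. It had 48 counts in IP PE replicate 1, 38 in input PE replicate 3, 2 in IP mock replicate 1 and 3 in input mock replicate 2. The remaining 8 libraries had none. The libraries with 48 and 38 counts were the deepest ones, and these counts amount to 1.59 and 1.29 CPM by library total. A floor of 3 counts per library allows up to 0.168 and 0.194 CPM in IP mock replicates 2 and 3, the next deepest libraries, where Fos was at 0. In the shallowest library, input mock replicate 3, the same floor allows 2.11 CPM. These floors cover counting error only. A level such as that of the deepest PE libraries lies below the floor of the shallowest library and above that of IP mock replicate 3. The floor of IP mock replicate 2 says less, since this library also had 0 counts for genes at far higher levels elsewhere. Fos was also at 0 in input PE replicate 2 and IP PE replicate 3, whose floors were 0.584 and 0.594 CPM. These lie below the 1.29 and 1.59 CPM of the deepest PE libraries, so PE replicates disagreed beyond these floors. Fos was not tested with the other genes. Without a filter, edgeR gave it log2 fold changes with an SE between 2.44 and 3.99 in the 6 comparisons, so no difference between groups was detectable.

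The other 5 transcripts had counts in every library. The smallest was 2 counts of Myc in input mock replicate 3, and the largest was 5928 counts of Jun in IP PE replicate 1.

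Jun, the AP-1 subunit that can pair with itself or with Fos, stood higher in the precipitates than in the inputs in both treatments, without passing the test in either. In PE cells it had 124, 48.2 and 50.8 CPM in IP replicates 1, 2 and 3, against 52.1, 14.6 and 17.5 CPM in input replicates 1, 2 and 3. The ranges overlapped through input replicate 1 alone, which lay above the lower pair of IP libraries. In mock cells it had 14.7, 63.8 and 45.4 CPM in IP, against 22.9, 15.8 and 21.5 CPM in input. Here IP replicate 1 lay below all 3 inputs and the other IP libraries lay above them.

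The log2 fold change of Jun was 1.41 in PE cells (SE 0.62, 95% interval 0.11 to 2.71, edgeR quasi-likelihood adjusted p = 0.360) and 1.05 in mock cells (SE 0.62, interval -0.27 to 2.36, adjusted p = 0.599). Averaged over both treatments it was 1.23 (SE 0.44, interval 0.30 to 2.15, adjusted p = 0.122), a 2.34-fold higher level in IP. That average was above the value of 82.6% of all genes tested. Its unadjusted p was 0.0356 in PE cells and 0.0124 in the average, where 5.48% and 10.0% of all genes were higher in IP at an unadjusted p under 0.05. Jun was thus among many genes with such a value.

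The direction of Jun held in all 20 alternatives of the average, with log2 fold changes between 0.93 and 2.31 and adjusted p between 0.00318 and 0.332. It passed without input PE replicate 1, at a log2 fold change of 1.61 (adjusted p = 0.0305), and with library totals as the only scaling, at 2.31 (adjusted p = 0.00318). Library totals moved the median of all genes to 1.31, against 0.16 under TMM, and Jun lay 1.00 and 1.07 above the median under these scalings. Without mock replicate 2 and PE replicate 1 it was 0.99 (adjusted p = 0.0794). By treatment, leaving out those 4 libraries gave 1.58 in PE cells (adjusted p = 0.0611) and 0.40 in mock cells (adjusted p = 0.797). In PE cells single libraries moved it too, to 0.82 without IP PE replicate 1 and 2.20 without input PE replicate 1, against 1.41 with all libraries. In mock cells it was 0.59 without IP mock replicate 2, against 1.05.

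Junb, a Jun relative that forms weaker AP-1 complexes, showed no separation of IP from input. Its levels were 32.4, 16.8 and 4.73 CPM in IP and 13.9, 11.6 and 13.7 CPM in input of PE cells. In mock cells they were 17.9, 14.4 and 18.7 CPM in IP and 12.3, 10.5 and 21.5 CPM in input. The PE precipitates held both the highest and the lowest library of all 12, whereas the PE inputs lay close together. The log2 fold change was 0.46 in PE cells (SE 0.76, adjusted p = 0.953), 0.22 in mock cells (SE 0.76, adjusted p = 0.990) and 0.34 in the average (SE 0.54, interval -0.79 to 1.48, adjusted p = 0.846). The sign of the average turned without IP PE replicate 1, at -0.032, and without the 4 libraries, at -0.078. Without those 4 the values by treatment were -0.28 in PE cells and 0.12 in mock cells.

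Egr1, whose promoter is shown above, differed between IP and input in PE cells more than in mock cells by its point values. In PE cells it had 30.2, 17.7 and 9.47 CPM in IP, against 1.62, 5.12 and 9.43 CPM in input. The lowest IP library lay just above the highest input, so the groups did not overlap, which held for higher levels in IP in 12.9% of all genes. Those inputs rested on 8, 19 and 158 counts. In mock cells Egr1 had 7.23, 13.4 and 11.7 CPM in IP and 5.07, 11.9 and 14.8 CPM in input, with ranges that overlapped widely.

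The log2 fold change of Egr1 was 1.82 in PE cells (SE 0.94, interval -0.17 to 3.80, edgeR adjusted p = 0.496) and 0.05 in mock cells (SE 0.92, interval -1.90 to 2.00, adjusted p = 0.999). The difference between them, tested as an interaction, was 1.77 (SE 1.31, interval -0.997 to 4.53, adjusted p = 1.00). Averaged over treatments the log2 fold change was 0.93 (SE 0.65, adjusted p = 0.528), and it passed under library totals alone, at 2.12 (adjusted p = 0.0260). Without the 4 libraries, which include the input with 8 counts, the value in PE cells was 0.85 (adjusted p = 0.647), against 1.82 with all of them, that in mock cells was -0.0073 and the average was 0.42. Single libraries turned the sign in mock cells, for example to -0.29 without input mock replicate 1.

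Atf3, which the cell makes more of under stress, was the gene of the 5 with the lowest IP against input values. In PE cells it had 42.5, 28.7 and 31.1 CPM in IP, against 63.2, 22.9 and 31.2 CPM in input. In mock cells it had 18.1, 3.15 and 28.6 CPM in IP, against 23.2, 39.5 and 17.5 CPM in input. IP mock replicate 2, the library with most undetected genes, held the lowest Atf3 level. The log2 fold change was -0.20 in PE cells (SE 0.67, adjusted p = 0.989), -0.70 in mock cells (SE 0.68, adjusted p = 0.838) and -0.45 in the average (SE 0.48, interval -1.46 to 0.56, adjusted p = 0.739). Without IP mock replicate 2 the value was -0.21 in mock cells and -0.20 in the average, without IP mock replicate 3 it was -1.35 and -0.78, and without input PE replicate 1 the average was -0.20. The sign of the average turned under library totals, at 0.55, and without the 4 libraries, at 0.12. Without those 4 it was 0.10 in PE cells and 0.14 in mock cells.

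Myc, the factor that drives growth genes, gave the widest spread. In PE cells it had 11.3, 30.4 and 7.85 CPM in IP, against 14.5, 4.85 and 10.3 CPM in input. In mock cells it had 8.48, 5.92 and 7.43 CPM in IP, against 4.59, 16.2 and 2.69 CPM in input. A single library stood apart in the PE precipitates (replicate 2) and another in the mock inputs (replicate 2). The log2 fold change was 0.73 in PE cells (SE 0.98, adjusted p = 0.932), -0.15 in mock cells (SE 0.98, adjusted p = 0.999) and 0.29 in the average (SE 0.69, interval -1.17 to 1.76, adjusted p = 0.912). Without IP PE replicate 2 the value in PE cells was -0.047, and without input mock replicate 2 that in mock cells was 0.95. Without the 4 libraries Myc stood at 1.29 in PE cells, 1.01 in mock cells and 1.15 in the average (adjusted p = 0.265).

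Counted over the list, 0 of the 5 tested genes passed in PE cells, 0 in mock cells and 0 in the average, where 2.11%, 0.743% and 5.88% of all genes passed in either direction (edgeR, adjusted p under 0.05). DESeq2 and limma voom also passed 0 of the 5 in each. At an unadjusted p under 0.05 (edgeR) there was 1 gene in PE cells, 0 in mock cells and 1 in the average, in both cases Jun. Of the 10491 genes tested, 1226, 1130 and 1927 had such a p in these comparisons, in either direction. The median log2 fold change of the 5 genes was 0.73 in PE cells and 0.05 in mock cells, and that of all genes tested was 0.18 and 0.11. Of the 5, the groups did not overlap in PE cells for Egr1 and in mock cells for none under TMM, where 12.9% and 9.96% of all genes lay higher in every IP library. Under library totals they did not overlap for Jun and Egr1 in PE cells and for Jun and Junb in mock cells, where 37.3% and 33.0% of all genes did so.

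**Figure D2:**
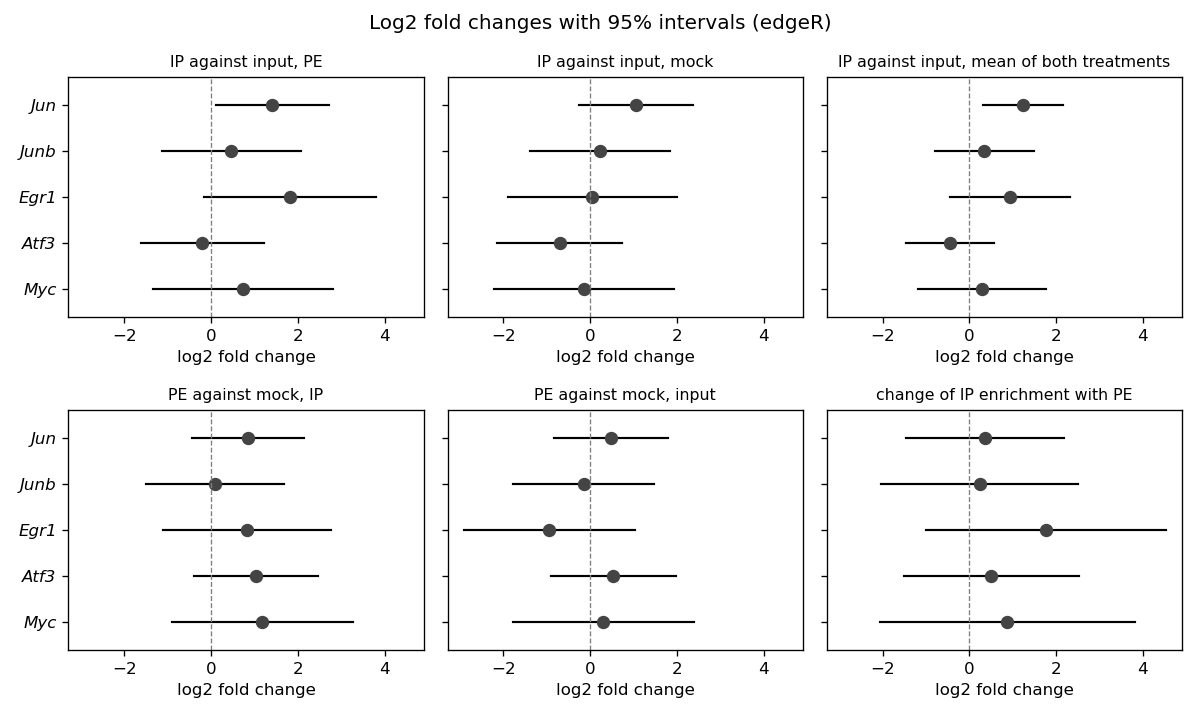
Log2 fold changes of the 5 tested genes (points) with 95% intervals (lines) from the edgeR fit of all 12 libraries, in 6 comparisons on 1 shared horizontal axis; the dashed line marks 0. Only the intervals of Jun for IP against input in PE cells (0.11 to 2.71) and in the average (0.30 to 2.15) lie wholly above 0, and no adjusted p was under 0.05.

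**Figure D3:**
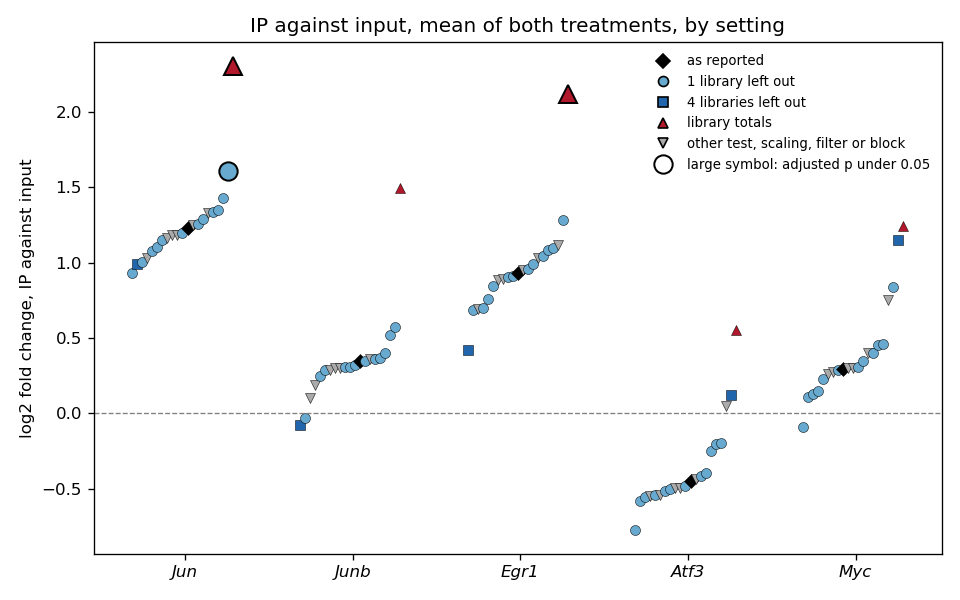
Log2 fold change of IP against input, averaged over both treatments (vertical axis), under each setting for the 5 tested genes (horizontal axis); large symbols have an adjusted p under 0.05. Jun and Egr1 lay above 0 in every setting drawn, and the large symbols are library totals for both and, for Jun, the fit without input PE replicate 1.

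A comparison that no library scaling can alter is the share of each gene in the summed counts of the 6. Jun made up 51.4%, 34.0% and 48.9% of these counts in IP PE replicates 1, 2 and 3, against 35.8%, 24.7% and 20.7% in input PE. In mock cells its share was 22.1%, 63.4% and 40.6% in IP, against 33.7%, 16.7% and 27.6% in input. The ranges overlapped in PE cells because IP replicate 2, with a 95% Wilson interval of 29.9% to 38.3% on 480 counts, lay below input replicate 1. In mock cells IP replicate 1, with an interval of 18.6% to 26.0% on 480 counts, lay below inputs 1 and 3. The interval of input 3, 17.8% to 40.2% on 58 counts, contains that of IP replicate 1. For input 1 it was 28.4% to 39.4% on 282 counts. These intervals cover counting error only.

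Atf3 took the opposite place in this make-up. In PE cells its share averaged 22.6% ± 6.51 in IP and 39.8% ± 3.34 in input (SD, n = 3 each), and every IP library lay below every input. Shares were not tested, and no share over all genes stands beside this separation. In CPM the Atf3 groups overlapped in PE cells, at a log2 fold change of -0.20. In mock cells it averaged 18.6% ± 13.4 in IP and 32.7% ± 9.75 in input (SD, n = 3 each), with overlap. The Junb share did not separate, with 9.95% ± 4.74 in IP PE and 15.1% ± 5.11 in input PE, and 19.3% ± 6.67 in IP mock and 18.9% ± 8.27 in input mock (SD, n = 3 each). Egr1 shares overlapped in PE cells, unlike its CPM, at 12.5%, 12.5% and 9.10% in IP against 1.11%, 8.68% and 11.2% in input. In mock cells they averaged 11.5% ± 1.53 in IP and 13.0% ± 5.77 in input (SD, n = 3 each). Myc shares overlapped as well, with means of 11.2% in IP PE, 10.2% in input PE, 8.41% in IP mock and 9.11% in input mock. Shares sum to 100% within a library, so a larger Jun share lowers those of the others.

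**Figure D4:**
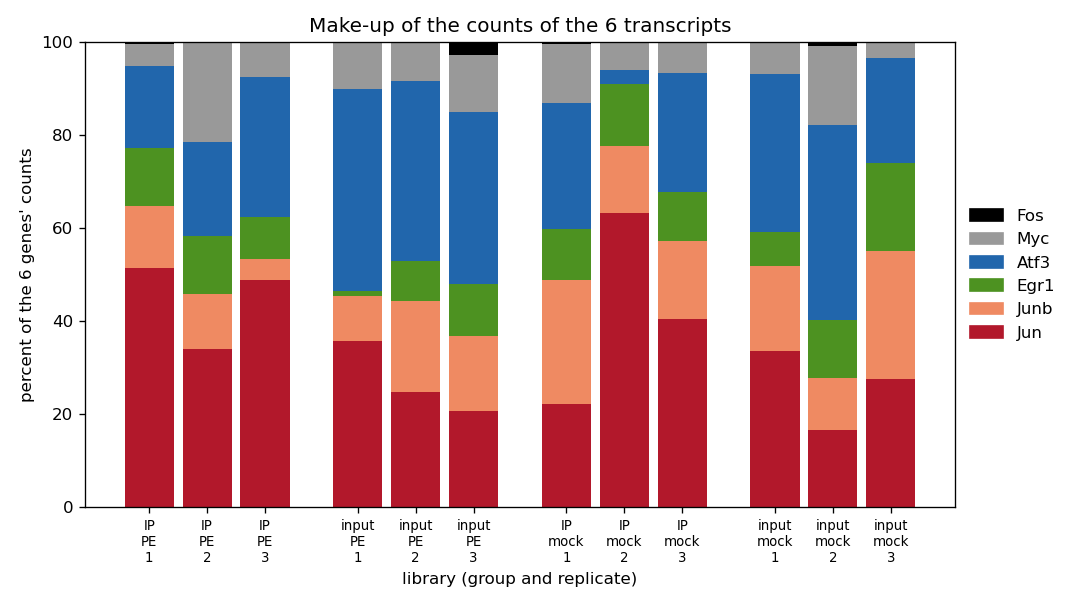
Share of each gene in the summed counts of the 6 transcripts (vertical axis, percent) in each library (horizontal axis, by group and replicate). Jun made up 51.4% of these counts in IP PE replicate 1 and 20.7% in input PE replicate 3, and Fos at most 2.69%, in input PE replicate 3.

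PE against mock at 24 h gave no gene of the 5 past the threshold in either RNA pool. In the input the log2 fold change of PE against mock was 0.49 for Jun (SE 0.62, interval -0.82 to 1.80), -0.15 for Junb (SE 0.77), -0.94 for Egr1 (SE 0.93, interval -2.92 to 1.04), 0.53 for Atf3 (SE 0.68) and 0.30 for Myc (SE 0.98). Input means were 28.1 ± 20.9 CPM in PE and 20.1 ± 3.81 CPM in mock cells for Jun, and 5.39 ± 3.92 CPM in PE and 10.6 ± 4.99 CPM in mock cells for Egr1 (SD, n = 3 each). The Jun value turned on input PE replicate 1 at 52.1 CPM, since without that library it was -0.31, and without the 4 libraries it was -0.48. Myc also moved, to 1.40 without input mock replicate 2, -0.090 without input PE replicate 1 and 0.98 without the 4 libraries. Atf3 was at 0.00096 without input PE replicate 1, and Junb at 0.20 without input mock replicate 3 and -0.38 without the 4 libraries. Egr1 kept its negative sign in all 20 alternatives, between -1.64 without input PE replicate 3 and -0.35 without the 4 libraries, with adjusted p of at least 0.977.

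In the precipitates all 5 genes had positive PE against mock values, with a median log2 fold change of 0.85, against 0.12 for all genes tested. The log2 fold change was 0.85 for Jun (SE 0.61, interval -0.43 to 2.13), 0.09 for Junb (SE 0.75), 0.83 for Egr1 (SE 0.91), 1.04 for Atf3 (SE 0.68, interval -0.40 to 2.47) and 1.18 for Myc (SE 0.99, interval -0.91 to 3.26). Atf3 averaged 34.1 ± 7.37 CPM in PE and 16.6 ± 12.8 CPM in mock precipitates (SD, n = 3 each). Its groups did not overlap, the lowest PE library and the highest mock library being both within 28.6 to 28.7 CPM, and 8.61% of all genes lay higher in every PE precipitate. Without IP mock replicate 2 the Atf3 value was 0.55, without IP mock replicate 3 it was 1.69, and without the 4 libraries it was 0.34. The value of Junb was -0.67 without IP PE replicate 1, -0.018 without IP mock replicate 2 and -0.78 without the 4 libraries. Without IP PE replicate 1, Jun stood at 0.26 and Egr1 at 0.33, and without IP PE replicate 2, Myc stood at 0.40. Egr1 was at 0.51 without the 4 libraries.

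For both pools, 0 of 5 genes passed (edgeR), where 0.00953% of all genes did, which was 1 gene in each. DESeq2 and voom passed 0 of the 5 in both as well, and none of the 5 had an unadjusted p under 0.05 (edgeR). Such a p was found for 375 of the 10491 genes tested in input and for 581 in IP. The intervals show how much could have been missed. In the input, a PE effect on Jun of up to 3.48-fold and on Egr1 of up to 2.05-fold higher lay within the 95% interval, as did a level of Egr1 at 0.132 of the mock level. Comparisons that share a group of libraries, such as IP against input in PE cells and PE against mock in IP, are not independent.

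The change of enrichment with PE was positive for all 5 genes by its point value and passed for none, with 0% of all genes passing (edgeR, DESeq2 and voom passed 0 of the 5). Its median over all genes tested was -0.0125. The 5 values come from the same libraries, so their signs are not independent. The log2 difference was 0.36 for Jun (SE 0.86), 0.24 for Junb (SE 1.07), 1.77 for Egr1 (SE 1.31), 0.51 for Atf3 (SE 0.95) and 0.88 for Myc (SE 1.39). It kept its sign in all 20 alternatives for Egr1, between 0.86 and 2.46. Without IP PE replicate 1 it was -0.51 for Junb and -0.23 for Jun, without input mock replicate 2 it was -0.22 for Myc, and without IP mock replicate 2 it was 0.018 for Atf3. Without the 4 libraries it was 1.18 for Jun, -0.40 for Junb, 0.86 for Egr1, -0.042 for Atf3 and 0.28 for Myc.

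Each of the 5 genes varied less between replicates than the median gene. Their biological coefficient of variation (the fitted spread between libraries of a group beyond counting error) was 0.558 for Jun, 0.661 for Junb, 0.754 for Egr1, 0.611 for Atf3 and 0.793 for Myc, against a median of 0.903 over all genes tested. Between 26.7% (Jun) and 44.3% (Myc) of all genes had a lower value. Genes of like level were not compared separately, so level was not accounted for. With 3 libraries a group, a spread of this size left SEs of 0.62 to 0.98 on the log2 scale for IP against input within a treatment.

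Likeness of pattern was measured as the mean absolute difference of log2 CPM over the 12 libraries, each gene centred on its own mean. It is a description, as the libraries share depth and scaling. Among the 5, Junb and Egr1 were nearest, at 0.71, followed by Atf3 and Myc at 0.77 and by Jun and Egr1 at 0.82. The most distant pair was Egr1 with Atf3, at 1.05. Seen from Egr1, 4.37% of all genes tested were nearer than Junb, and seen from Jun, 11.9% were nearer than Egr1. These were the lowest such shares among the 5. The highest was 38.4%, for genes nearer to Atf3 than Egr1 was. Outside the list, among 5865 genes at a mean of at least 10 CPM, the patterns nearest to Jun were those of ENSRNOG00000032798 at 0.30 and ENSRNOG00000014705 at 0.37, for which the files give no symbol. The 5 thus did not form a group nearer to each other than to other genes.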

How the data were processed

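Per the labels' protocols, RNA bound by Cpeb4 was immunoprecipitated from myocytes, and 200 ng of RNA went into each 3′ end library, amplified over 15 cycles. Trimming, alignment and counting tools listed in the submitters' processing notes are featureCounts 1.6.4, STAR 2.7 and cutadapt 2.5, beside DESeq2, with Rnor_6.0 as the build. The sources used here give neither strand setting nor annotation release, so reads of overlapping or antisense genes cannot be told apart. The authors deposited raw counts per Ensembl gene without normalization, and 32883 blank lines were skipped. All per-sample columns were matched to samples by type, treatment and replicate number.

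Counts were fitted with edgeR 4.0.16 in R 4.3.3 across all 12 libraries and 4 group means, with filterByExpr, TMM and robust quasi-likelihood F-tests. Benjamini-Hochberg adjustment covered the 10491 genes tested in each contrast, and 0.05 was the threshold. The SE is the log2 fold change divided by the square root of F. Log2 CPM used a prior count of 2. The least share of a library's counts kept was 99.6%. No replicates agreed within sampling noise (lowest chi-square per degree of freedom 7.79). The fit was also run on simulated counts with known changes in IP, read for the average of both treatments alone. Those counts lacked the scaling difference between IP and input libraries, and the outcome is not given here.

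The genes, lists and alternatives were chosen with earlier results of these data known. All 6 genes are named whatever their values. Pathway and marker lists were not analysed here, as 0 RefSeq entries carry an Ensembl identifier; of each gene's 2 nearest in pattern, those of Jun alone are printed. Alternatives were limma 3.58.1 voom, DESeq2 1.42.0 and its size factors, library totals, no filter, fits of the compared groups, replicate blocks and left-out libraries.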

Additional observations from a re-analysis of the deposited data

How the results depend on the processing

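The counts of genes past the threshold stayed at 0 of 5 in every alternative, except for IP against input averaged over treatments, which gave 2 with library totals (Jun and Egr1) and 0 to 1 with single libraries left out (Jun, without input PE replicate 1). Over all genes, the alternatives called 3 to 641 higher and 24 to 623 lower in PE cells (48 and 173 as reported), 0 to 842 and 1 to 349 in mock cells (17 and 61), and 111 to 2823 and 65 to 863 in the average (237 and 380). PE against mock gave 0 to 14 and 0 to 1 in input and 0 to 28 and 0 to 19 in IP (1 and 0 each), and the change of enrichment 0 and 0 to 2. With library totals 96.4% of PE, 98.8% of mock and 97.7% of averaged calls were higher, against 21.7%, 21.8% and 38.4%.

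Signs of values that had not passed also turned, and the cause was not tested. Log2 fold changes of IP against input in PE cells became 0.76 for Atf3 (library totals), -0.28 for Junb and 0.10 for Atf3 (4 libraries left out), and -0.069 and 0.15 for the same genes (voom). In mock cells they became -0.032 and -0.012 for Egr1 (DESeq2 size factors and Wald test), 0.34 for Atf3 and 0.77 for Myc (library totals), -0.0073 for Egr1, 0.14 for Atf3 and 1.01 for Myc (4 libraries left out) and 0.84 for Myc (voom). In the average they became 0.55 for Atf3 (library totals), -0.078 for Junb and 0.12 for Atf3 (4 libraries left out) and 0.049 for Atf3 (voom). The change with PE became -0.40 for Junb and -0.042 for Atf3 (4 libraries left out), and -0.34 for Junb and -0.18 for Myc (voom). PE against mock became 0.16 for Junb in input (library totals), -0.48 and -0.32 for Jun in input and -0.78 and -0.55 for Junb in IP (4 libraries left out and voom).

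With single libraries left out, values ranged as follows. In PE cells Junb ran from -0.29 to 0.91, Atf3 from -0.47 to 0.32 and Myc from -0.047 to 1.08. In mock cells Egr1 ran from -0.29 to 0.35 and Myc from -0.51 to 0.95. In the average Junb ran from -0.032 to 0.57 and Myc from -0.093 to 0.84. The change with PE ran from -0.23 to 1.17 for Jun, -0.51 to 0.69 for Junb and -0.22 to 1.26 for Myc. PE against mock ran from -0.31 to 0.80 for Jun, -0.35 to 0.20 for Junb and -0.090 to 1.40 for Myc in input, and from -0.67 to 0.54 for Junb in IP.

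Column names give an IP and the input of its treatment and number a shared letter, whose meaning is not stated. Deviations of such libraries correlated at 0.105 to 0.242 in 5 of 6 and at 0.017 in PE replicate 2, under the 0.1 asked of every one, so the main fit has no block. As a hint of pairing from the data, 5 of 6 precipitates correlated best with the input of their number. With a replicate block within treatment, calls higher and lower over all genes were 128 and 293 in PE cells, 95 and 177 in mock cells and 347 and 512 in the average. None of the 5 genes passed with either replicate block. Jun lay above its same-numbered input in 3 of 3 PE precipitates, and its blocked log2 fold change in PE cells was 1.503 (SE 0.51, edgeR adjusted p = 0.159). Egr1 also lay above its same-numbered input in each PE precipitate, in replicate 3 by 9.47 against 9.43 CPM on 76 and 158 counts. As a share of the counts of the 6 genes, Egr1 in replicate 3 was lower in IP, at 9.10% against 11.2%. What share of all genes lay above the same-numbered input in each PE precipitate was not computed, for Jun or for Egr1. In mock cells Jun lay below its input in replicate 1, at 14.7 against 22.9 CPM. Its blocked value there was 0.83 (SE 0.54, edgeR adjusted p = 0.632). The block gave 0.17 for Myc in mock cells as a number over all groups, and 0.26 for Myc in mock cells and -0.16 for the change of Junb within treatment. PE against mock cannot be fitted with the block within treatment. Low counts limit what can be said of Fos, and of Myc and Egr1 in several inputs.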
